A study of Arabidopsis thaliana with 30 samples.

Results

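The comparison described here is that of bdr1,2,3 with the wild type after 2 h of light: 3 libraries of each genotype, 6 of the 30 libraries of an RNA-seq series on Arabidopsis thaliana seedlings. The libraries were taken by their labels, and no measured value entered the choice. bdr1,2,3 is a triple mutant with T-DNA insertions in BDR1, BDR2 and BDR3 (alleles bdr1-1, bdr2-1 and bdr3-1), and the wild type is the ecotype Col-0. All 6 samples were 5-day-old seedlings raised in the dark at 21 °C and given white light for the last 2 h before RNA was isolated, so that the genotypes shared ecotype, age and growth conditions. The authors reported short roots of the triple mutant in separate growth assays. For comparison, bdr1,2,3 and wild-type seedlings of the same age were kept in the dark or given 4 h of light. In addition, 12-day-old seedlings of both genotypes either stayed at 12 °C (cold) or were brought to 27 °C for 4 h (heat), with 3 libraries per group. The triple mutant is a single combination of insertion alleles, and no complemented line was among the samples. RNA came from whole seedlings, so that fewer cells of a type and less RNA per cell cannot be told apart.

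When a seedling that has grown in the dark meets light, phytochromes and cryptochromes shut down the programme of stem elongation, the cotyledons open, and plastids turn into chloroplasts. Nuclear genes for chlorophyll-binding antenna proteins, photosystem subunits and the enzymes of the Calvin-Benson cycle are induced, while growth genes such as the auxin-induced SAUR genes are regulated differently in cotyledons and hypocotyl. BDR proteins carry an SPOC domain and the central domain of the elongation factor TFIIS, which contacts RNA polymerase II. Many Arabidopsis genes start shortly after the end of another gene on the same strand, and such tandem neighbours recur below.

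The mutant libraries held 12264852, 17536085 and 10939766 counts, and the wild-type libraries 11932348, 12247621 and 11839123. Values are given as CPM, that is, counts relative to the effective size of the library. Over the 500 most variable genes, the first principal component held 74.8% of the variance and separated the genotypes. The second held 15.9% and separated the wild-type libraries from one another, with scores of 16.0 for replicate 1, -0.21 for replicate 2 and -15.7 for replicate 3, while the mutant libraries lay between -2.27 and 2.1. Root and suberin genes chosen after their values were seen followed this spread. MRN1, which encodes marneral synthase, had 5.89, 6.37 and 4.99 CPM in bdr1,2,3, against 53.2, 17.5 and 4.57 CPM in the wild type, and GPAT7, an acyltransferase of suberin synthesis, had 13.2, 16.6 and 11.0 CPM in bdr1,2,3, against 17.9, 8.16 and 4.31 CPM in the wild type. Results on root genes are therefore given with and without wild-type replicates 1 and 3. Replicate libraries differed by more than counting error, as the chi-square divided by its degrees of freedom ran between 2.07 and 5.79 for the 6 pairs.

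All 3 disrupted genes were lower in the mutant. BDR1 (AT5G25520, chromosome 5, 8885088 to 8889904, plus strand) had 2.58, 2.5 and 2.99 CPM in the bdr1,2,3 libraries, against 78.7, 89.0 and 88.4 CPM in the wild-type libraries (log2 fold change -5.00 ± 0.12 (SE), edgeR adjusted p = 2.46e-19). BDR2 (AT5G11430) had 10.7, 12.0 and 11.4 CPM in bdr1,2,3, against 21.3, 28.9 and 25.4 CPM in the wild type (log2 fold change -1.14 ± 0.11 (SE), edgeR adjusted p = 6.5e-08), and BDR3 (AT2G25640) had 1.86, 1.54 and 1.72 CPM in bdr1,2,3, against 4.47, 5.83 and 5.44 CPM in the wild type (log2 fold change -1.63 ± 0.20 (SE), edgeR adjusted p = 1.55e-06). The groups did not overlap for any of the 3 genes, but transcript of BDR2 remained at 11.4 ± 0.632 CPM (SD). BDR1 overlaps AT5G25530 on the opposite strand, which makes its value uncertain. The seedlings of both genotypes had responded to light. The early light-induced gene ELIP1 was higher than in the dark by a log2 fold change of 8.27 in bdr1,2,3 and 7.82 in the wild type, and its genotype difference at 2 h was 0.02 (adjusted p = 0.94).

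Of 19521 genes tested, 1693 (8.67%) were higher and 2065 (10.6%) lower in bdr1,2,3 at an edgeR adjusted p under 0.05. Most differences were small: 643 genes (3.29%) were higher and 763 (3.91%) lower by at least 1.5-fold, and the median log2 fold change of all tested genes was -0.02. These shares are the background against which the members of each gene group are read below. Genes whose 3 mutant values all lay above the 3 wild-type values made up 16.4% of those tested, and genes whose mutant values all lay below 19.5%. Among process terms of the annotation with at least 30 tested genes, the highest share of lower genes was under photosynthesis, with 23 of 64 lower and 1 higher. Among location terms of that size it was the thylakoid membrane of the chloroplast, with 62 of 195 lower and 4 higher, followed by the thylakoid (32 of 102 lower) and the chloroplast stroma (75 of 260 lower). The highest shares of higher genes were under unidimensional cell growth, with 15 of 40 higher, and under the nucleosome, with 11 of 35.

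**Figure D1:**
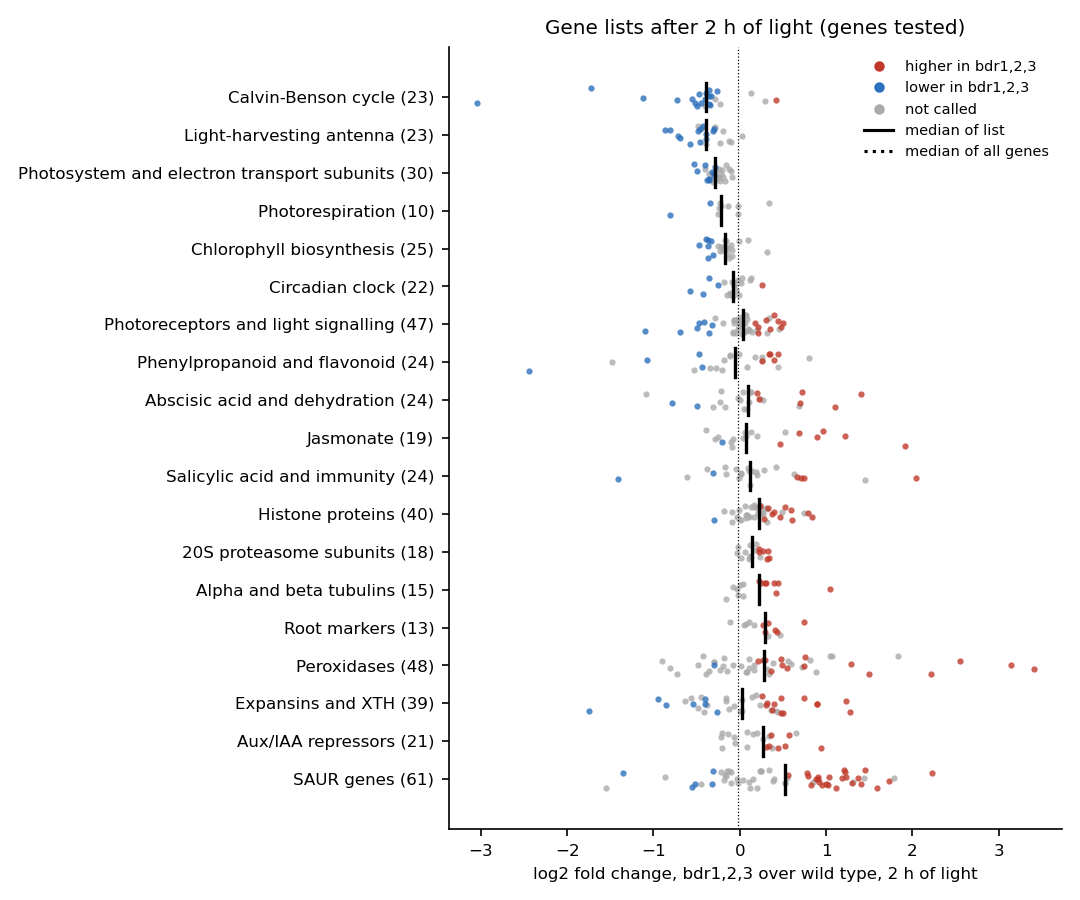
Log2 fold change of bdr1,2,3 over the wild type after 2 h of light for the tested members of each gene list or family (number tested in brackets), with red and blue points for members higher and lower at an edgeR adjusted p under 0.05, grey points for the others, a black bar at the median of the list and a dotted line at the median of all genes (-0.02). The Calvin-Benson cycle (median -0.39) and the antenna (-0.40) lie to the left of 0, and SAUR genes (0.53) to the right.

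Genes of carbon fixation were lower in bdr1,2,3. Of 23 tested genes of the Calvin-Benson cycle, which fixes carbon dioxide in the chloroplast, 17 were lower, 1 was higher and 5 did not pass the test. Their median log2 fold change was -0.39, against -0.02 for all genes tested. In 19 of the 23 every mutant library lay below every wild-type library, where 19.5% of all genes tested did so. Summed over the list, the level was 15833, 15199 and 14379 CPM in bdr1,2,3, against 18358, 22492 and 20947 CPM in the wild type. The largest fall was that of GAPB (AT1G42970, chromosome 1, 16127353 to 16129895, plus strand), the B subunit of the plastid glyceraldehyde-3-phosphate dehydrogenase that reduces the product of carbon fixation. GAPB had 91.4, 80.3 and 71.9 CPM in the bdr1,2,3 libraries, against 620.0, 728 and 666 CPM in the wild-type libraries (log2 fold change -3.05 ± 0.11 (SE), edgeR adjusted p = 3.4e-15). CP12-2, a small protein that binds this enzyme and phosphoribulokinase in the dark, had 33.0, 31.3 and 27.8 CPM in bdr1,2,3, against 95.8, 117 and 92.1 CPM in the wild type (log2 fold change -1.72 ± 0.11 (SE), edgeR adjusted p = 1.38e-10). PGK1, a plastid phosphoglycerate kinase, had 158, 145 and 152 CPM in bdr1,2,3, against 306, 364 and 325 CPM in the wild type (log2 fold change -1.13 ± 0.11 (SE), edgeR adjusted p = 1.07e-07). The groups were far apart for these 3 genes. The remaining falls were smaller, and of the 17 lower genes 4 in all were lower by at least 1.5-fold. RBCS2B, a small subunit of Rubisco, had 912, 889 and 846 CPM in bdr1,2,3, against 1295, 1621 and 1452 CPM in the wild type (log2 fold change -0.72 ± 0.11 (SE), edgeR adjusted p = 6.33e-05), and as the small-subunit genes are near-identical copies, the division of reads among them is uncertain. The members that did not pass the test included GAPA, the partner subunit of GAPB (-0.29), and the only higher member was CP12-3 (0.42). Both were named after their values were seen. The number of lower members was 10 without wild-type replicate 2 or without mutant replicate 3 and 12 to 19 without any other single library, and it was 13 without wild-type replicates 1 and 3 together.

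The 3 genes with the largest falls among the Calvin-Benson genes all started a short way after another gene on the same strand. The bases between the end of that gene and the start of the named gene, from RefSeq's TAIR10.1 annotation, are shown because this short spacing recurs among the genes that fell. They are printed 5′ to 3′ on the strand of the gene.
GAPB (chr1:16127299-16127352, plus strand, after AT1G42960): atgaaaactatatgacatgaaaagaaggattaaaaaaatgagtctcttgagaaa
CP12-2 (chr3:23090822-23090943, plus strand, after AT3G62400): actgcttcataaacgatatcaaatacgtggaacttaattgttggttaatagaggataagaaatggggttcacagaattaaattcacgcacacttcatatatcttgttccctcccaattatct
PGK1 (chr3:4063307-4063319, minus strand, after SDRB): gaggcaaaacagt
The 3 gaps were 54, 122 and 13 bp long. The upstream genes did not differ between the genotypes beyond the test: AT1G42960 had a log2 fold change of 0.03, AT3G62400 of -0.07 and SDRB of -0.10. Over the whole list, 7 of the 17 lower genes (41.2%) had a same-strand neighbour ending less than 600 bp upstream, against 36.4% (8 of 22) of all tested Calvin-Benson genes, 45.3% of all lower genes and 24.1% of all tested genes. Each share is over genes whose neighbour did not overlap them. The 17 lower genes make up most of the 22, so that the share of the whole list is no separate comparison. Of the 8 members with such a neighbour, 7 were lower. The share among the lower members was above that of all tested genes and under that of all lower genes.

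**Figure D2:**
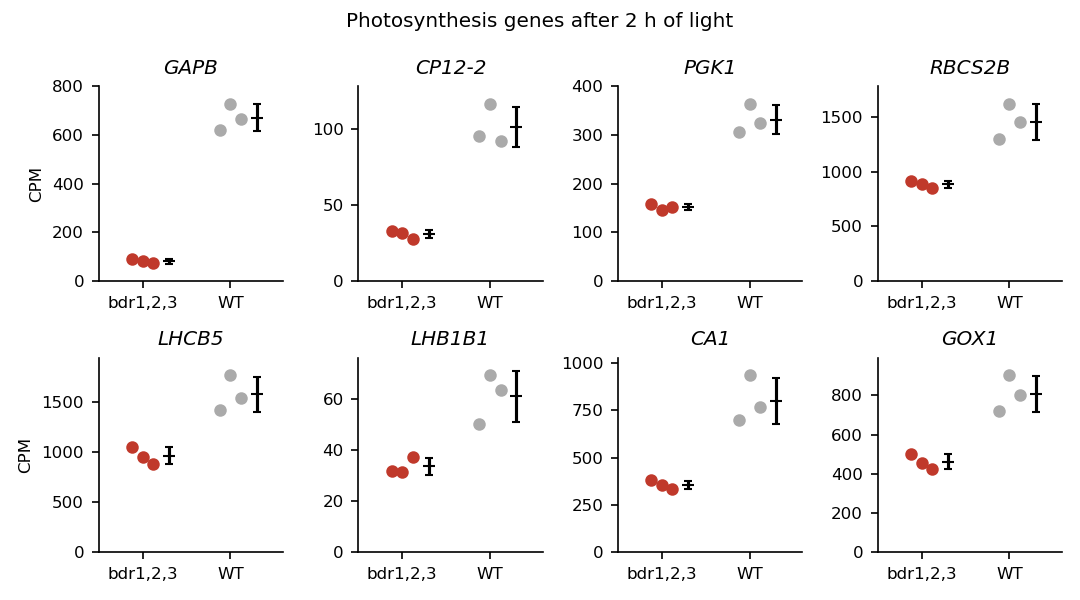
Transcript level (CPM, linear axes from 0) of genes of carbon fixation, light harvesting and photorespiration in each library after 2 h of light, with bdr1,2,3 on the left and the wild type on the right of each panel, points for the 3 libraries and bars for the mean and SD. The mutant libraries lie below every wild-type library in each panel, furthest for GAPB with 71.9 to 91.4 CPM against 620.0 to 728 CPM.

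Light-harvesting genes followed the same direction. The antenna list also holds the early light-induced genes ELIP1 and ELIP2, which were not called. Of its 23 tested genes, 13 were lower, of which 4 by at least 1.5-fold, and none was higher. The median log2 fold change of the 23 was -0.40. In 19 of them every mutant library was lower than every wild-type library, where this held for 19.5% of all genes tested. The summed level of the list was 15446, 14226 and 13495 CPM in bdr1,2,3, against 17116, 20337 and 18785 CPM in the wild type. LHCB5, a minor antenna protein of photosystem II, had 1051, 952 and 882 CPM in bdr1,2,3, against 1418, 1766 and 1539 CPM in the wild type (log2 fold change -0.71 ± 0.10 (SE), edgeR adjusted p = 2.62e-05). LHB1B1, which encodes a protein of the trimeric antenna of photosystem II and has a near-identical neighbour in LHB1B2, had 32.0, 31.6 and 37.4 CPM in bdr1,2,3, against 50.2, 69.3 and 63.5 CPM in the wild type (log2 fold change -0.86 ± 0.11 (SE), edgeR adjusted p = 3.33e-06). Lhca6, a linker between photosystem I and the NDH complex, had 40.3, 41.7 and 37.0 CPM in bdr1,2,3, against 56.4, 74.7 and 62.4 CPM in the wild type (log2 fold change -0.70 ± 0.09 (SE), edgeR adjusted p = 2.14e-06). No library of bdr1,2,3 reached the wild-type range for these 3 genes. LHCB5 is another tandem gene, which starts 47 bp after AT4G10330 (log2 fold change 0.08, not called).
LHCB5 (chr4:6407960-6408006, plus strand, after AT4G10330): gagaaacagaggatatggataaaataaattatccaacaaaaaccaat
By contrast, LHB1B1 and Lhca6 have an upstream neighbour on the opposite strand. The number of lower antenna genes was 8 without wild-type replicate 2, mutant replicate 2 or mutant replicate 3, 9 to 12 without any other single library, and 18 when only the 6 libraries at 2 h entered the fit.

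Subunits of the photosystems and of electron transport, a family put together after the values had been seen, gave 9 lower (30.0%) and no higher genes of 30 tested (median -0.29). Among all genes 10.6% were lower. None of the 9 was lower by at least 1.5-fold. In 22 of the 30 the mutant libraries all lay below the wild-type libraries, where 19.5% of all genes tested did so. PSAG, a subunit of photosystem I, had 302 ± 4.08 CPM in bdr1,2,3 and 435 ± 32.0 CPM in the wild type (SD, n = 3 each). PETE1, a plastocyanin, had 56.3 ± 6.29 CPM in bdr1,2,3 and 79.6 ± 10.2 CPM in the wild type. The count of this family varied between 4 (without wild-type replicate 2, mutant replicate 2 or mutant replicate 3) and 13 (without mutant replicate 1), with 5 without wild-type replicate 3 and 20 with only the 6 libraries in the fit. Of 25 chlorophyll biosynthesis genes 7 (28.0%) were lower and none higher (median -0.17). The summed level of this list overlapped, with 6231, 5688 and 5519 CPM in bdr1,2,3, against 5850, 7101 and 6653 CPM in the wild type. Without a single library 3 to 8 were lower, the fewest without wild-type replicate 2 or mutant replicate 2 and 4 without mutant replicate 3. All 7 falls were under 1.5-fold. Among the 7 was CH1 (log2 fold change -0.32 ± 0.07 (SE), edgeR adjusted p = 0.00312), which makes chlorophyll b. POR C, a light-dependent protochlorophyllide oxidoreductase, had 121, 99.4 and 100.3 CPM in bdr1,2,3, against 122, 147 and 149 CPM in the wild type (log2 fold change -0.39 ± 0.09 (SE), edgeR adjusted p = 0.00352). Of 10 photorespiration genes 2 (20.0%) were lower, against 10.6% of all genes. The 2 were GOX1 and GOX2 (log2 fold change -0.35), which ends 377 bp upstream of GOX1 on the same strand. The summed level of the list overlapped between the genotypes, with 7210 to 8249 CPM in bdr1,2,3 and 8015 to 10385 CPM in the wild type. In GOX1, a peroxisomal glycolate oxidase, the level was 502, 456 and 426 CPM in bdr1,2,3, against 721, 903 and 801 CPM in the wild type (log2 fold change -0.81 ± 0.12 (SE), edgeR adjusted p = 5.39e-05). GOX1 overlaps AT3G14430 on the opposite strand, so its value is uncertain. Without wild-type replicate 1 or mutant replicate 1 the number of lower photorespiration genes was 5, and it was 1 without wild-type replicate 2 or mutant replicate 3.

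Among strongly expressed genes, CA1, the main carbonic anhydrase of the chloroplast stroma, had 380.1, 355 and 337 CPM in bdr1,2,3, against 701, 936 and 766 CPM in the wild type (log2 fold change -1.16 ± 0.09 (SE), edgeR adjusted p = 1.42e-09). CA1 overlaps AT3G01510 on the same strand, which makes its counts uncertain. SVR3, a plastid elongation factor of the TypA class, starts 36 bp after PDAT and had 356, 307 and 289 CPM in bdr1,2,3, against 486, 582 and 510.0 CPM in the wild type (log2 fold change -0.73 ± 0.09 (SE), edgeR adjusted p = 1.95e-06). FSD1, an iron superoxide dismutase, had 93.8, 96.3 and 86.2 CPM in bdr1,2,3, against 207, 198 and 199 CPM in the wild type (log2 fold change -1.13 ± 0.06 (SE), edgeR adjusted p = 1.97e-12). Each of the 3 was lower in every mutant library than in any wild-type library. ARC6, a DnaJ-like protein needed for chloroplast division that starts 162 bp after its neighbour, had 1.86, 2.39 and 2.72 CPM in bdr1,2,3, against 14.4, 16.9 and 14.8 CPM in the wild type (log2 fold change -2.73 ± 0.14 (SE), edgeR adjusted p = 4.35e-13). Of 108 DnaJ proteins as a family 15 (13.9%) were lower, a share near the 10.6% of all genes, and 3 were higher. Of 250 pentatricopeptide repeat proteins, most of which process organelle RNA, 18 (7.2%) were lower and 5 (2.0%) higher (median -0.13). Both shares are under those of all genes (10.6% and 8.67%). The DnaJ count was 10 without wild-type replicate 3 or mutant replicate 2 and 11 to 13 without any other library, and 1 DnaJ gene was higher without mutant replicate 3. The pentatricopeptide count was 11 without wild-type replicate 2, 12 without mutant replicate 3, and 15 to 27 without any other library, and the higher ones numbered 2 without mutant replicate 2 and 3 without wild-type replicate 2, wild-type replicate 3 or mutant replicate 3.

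The size of a fall went with the position of the gene. Among genes lower by more than 4-fold, 66 of the 73 whose upstream neighbour did not overlap them (90.4%) followed a same-strand gene ending less than 600 bp away, with a median same-strand distance of 79 bp. The share was 65.7% (138 of 210) for falls of 2- to 4-fold, 50.1% (182 of 363) for falls of 1.5- to 2-fold and 37.5% (446 of 1190) for smaller ones, against 24.1% (4313 of 17899) for all tested genes, whose median same-strand distance was 692 bp. Among genes that rose the share was 32.0% (16 of 50) above 4-fold and 15.0% to 21.8% below. Distances hold for the TAIR10.1 gene borders, and because the genes of a chromosome are not independent samples the shares are given as a description. Counting overlapping neighbours as well gave 46.9% of all lower genes and 17.7% of all higher genes, in place of 45.3% and 16.5%.

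**Figure D3:**
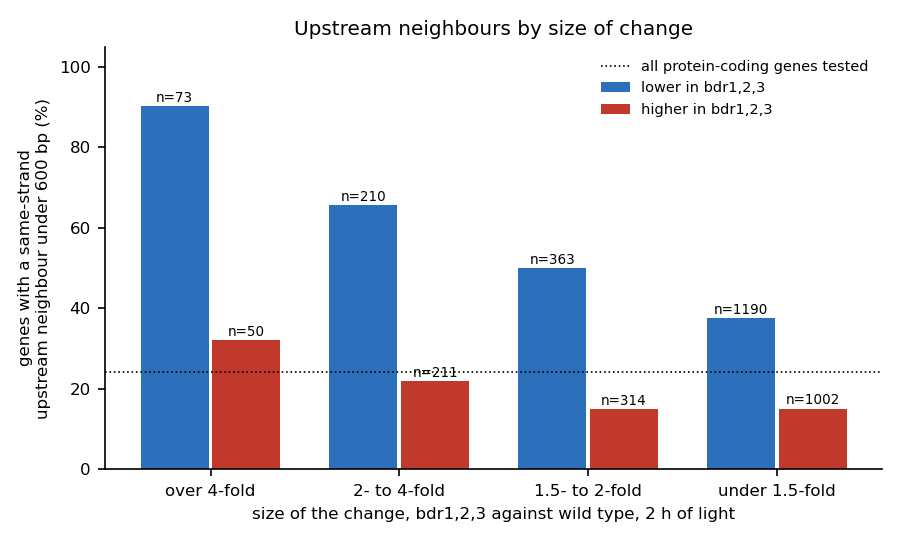
Share (percent) of genes whose upstream neighbour lies on the same strand and ends less than 600 bp away, by size of the difference between bdr1,2,3 and the wild type after 2 h of light, for genes lower (blue) and higher (red) in bdr1,2,3, with the number of genes above each bar and a dotted line for all protein-coding genes tested (24.1%). The share is 90.4% for falls of more than 4-fold and 37.5% for falls under 1.5-fold, and 15.0% to 32.0% for rises.

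Of the 12 largest falls, chosen by a fixed rule of size, 10 had a same-strand neighbour ending less than 250 bp upstream. AT1G09910, annotated as a rhamnogalacturonate lyase of the cell wall, had 0.0807, 0.0569 and 0 CPM in bdr1,2,3, against 13.1, 13.4 and 12.9 CPM in the wild type. No mutant library held more than 3 counts of it, and against 3 counts in the smallest library its level was at least 48.3-fold lower. AT4G11410, a short-chain dehydrogenase by its domain annotation, had 0.161, 0.114 and 0 CPM in bdr1,2,3, against 18.3, 16.2 and 15.9 CPM in the wild type, also with at most 3 counts in each mutant library. AT1G18060, which the annotation names a microbial collagenase, had 1.37, 1.93 and 1.36 CPM in bdr1,2,3, against 32.7, 34.6 and 27.5 CPM in the wild type (log2 fold change -4.30 ± 0.15 (SE), edgeR adjusted p = 4.02e-16). RSY3, a plastid-targeted protein needed for embryo growth, had 0.323, 0.284 and 0.181 CPM in bdr1,2,3, against 6.53, 7.82 and 10.0 CPM in the wild type (log2 fold change -4.87 ± 0.30 (SE), edgeR adjusted p = 1.79e-11), and AT2G21860, a relative of violaxanthin de-epoxidase, had 3.95, 3.35 and 3.99 CPM in bdr1,2,3, against 33.5, 33.5 and 33.9 CPM in the wild type (log2 fold change -3.17 ± 0.13 (SE), edgeR adjusted p = 3.45e-15). Mutant and wild-type libraries were far apart in all 5, but RSY3 and AT2G21860 each overlap a gene on the opposite strand, so their values are uncertain. HVA22A, an abscisic acid-inducible membrane protein, had 1.88 ± 0.493 CPM in bdr1,2,3 and 16.6 ± 2.11 CPM in the wild type and starts 13 bp after AT1G74530. The gaps before 4 of the largest falls are shown, because they are all that separates these genes from a neighbour that was not called, with matches to TATAAA or CACGTG in capitals.
AT1G09910 (chr1:3224542-3224683, minus strand, after AT1G09920): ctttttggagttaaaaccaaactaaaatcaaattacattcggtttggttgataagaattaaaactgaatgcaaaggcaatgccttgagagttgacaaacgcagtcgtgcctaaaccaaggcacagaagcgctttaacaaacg
AT4G11410 (chr4:6947414-6947475, minus strand, after EIF3A): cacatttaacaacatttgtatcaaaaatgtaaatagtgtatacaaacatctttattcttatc
AT1G18060 (chr1:6213592-6213650, minus strand, after AT1G18070): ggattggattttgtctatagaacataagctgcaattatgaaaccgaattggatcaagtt
AT2G21860 (chr2:9320025-9320189, minus strand, after MGP1): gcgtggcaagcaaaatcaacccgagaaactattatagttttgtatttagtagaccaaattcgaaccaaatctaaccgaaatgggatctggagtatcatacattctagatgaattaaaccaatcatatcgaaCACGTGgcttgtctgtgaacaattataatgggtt

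The neighbours just upstream differed less. EIF3A, a subunit of a translation initiation factor, had a log2 fold change of -0.00, whereas AT4G11410 was at least 61.7-fold lower, against 3 counts in the smallest mutant library. AT1G09920 had 0.03, AT1G18070 -0.03, MGP1 0.09 and PERK1, upstream of RSY3, -0.06, and none of these was called. Of the neighbours of the 12 falls, AT1G74530 (0.27) and PBA1 (0.20), a proteasome subunit, were called higher, but AT1G74530 lost its call without wild-type replicate 2 or mutant replicate 1 and PBA1 without any single library. MRD1, the exception without a tandem neighbour beside BDR1, overlaps HEI10 on the opposite strand, which was also lower (log2 fold change -2.66 ± 0.22 (SE), edgeR adjusted p = 2.77e-09), so that the reads of this pair are uncertain.

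Motifs in the 250 bases before the gene start were counted on both strands as a description. The G-box CACGTG, a site of light-regulated bZIP and bHLH factors, was in 7.52% of all tested genes, 7.15% of the lower and 7.59% of the higher genes. It was in 6 of 23 antenna genes (26.1%), 4 of 23 Calvin-Benson genes (17.4%) and 1.64% of 61 SAUR genes. The element TGGGCC was in 13.2% of lower and 11.1% of higher genes, against 16.8% of all, and TATAAA in 42.4% of lower and 47.3% of higher genes, against 46.0% of all. CACGTG and TGGGCC can share their end bases.

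Among auxin-induced growth genes more were higher than lower. Of 61 tested SAUR genes, small auxin-up RNAs of which many promote cell expansion, 24 were higher and 5 lower. Their median log2 fold change was 0.53, and 23 of the 24 were higher by at least 1.5-fold. The levels were low. SAUR19, an activator of the plasma membrane proton pump, had 5.97, 4.72 and 5.53 CPM in the bdr1,2,3 libraries, against 1.32, 2.91 and 1.98 CPM in the wild-type libraries (log2 fold change 1.37 ± 0.21 (SE), edgeR adjusted p = 3.52e-05). SAUR27 had 4.68, 3.58 and 4.53 CPM in bdr1,2,3, against 1.57, 1.83 and 2.16 CPM in the wild type (log2 fold change 1.19 ± 0.19 (SE), edgeR adjusted p = 8.89e-05). AT1G29490 had 1.29, 1.19 and 2.09 CPM in bdr1,2,3, against 0.248, 0.416 and 0.259 CPM in the wild type (log2 fold change 2.23 ± 0.35 (SE), edgeR adjusted p = 5.63e-05). The groups did not overlap for these 3 genes, but SAUR19 belongs to a cluster of near-identical copies and its reads may be divided among them. Of the lower members, SAUR36 had 23.2 ± 2.19 CPM in bdr1,2,3 and 33.1 ± 2.04 CPM in the wild type (log2 fold change -0.52 ± 0.08 (SE), edgeR adjusted p = 5.68e-05). The summed level of the family did not follow, with 573, 540.1 and 579 CPM in bdr1,2,3, against 585, 577 and 585 CPM in the wild type. Of the 24 higher SAUR genes 2 (8.33%) had a same-strand neighbour less than 600 bp upstream. Without any single library 19 to 24 SAUR genes were higher and 3 to 5 lower (3 without mutant replicate 2), and 17 without wild-type replicates 1 and 3 together.

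Aux/IAA genes encode repressors of auxin signalling, and many but not all of these genes are themselves induced by auxin. Of 21 tested, 7 were higher and none lower (median 0.27), and the summed level of the family was 2521, 2400 and 2474 CPM in bdr1,2,3, against 2049, 1977 and 2047 CPM in the wild type. The same number, 7, was higher without each single library in turn, and 5 without wild-type replicates 1 and 3. IAA19 had 39.5, 41.9 and 43.8 CPM in bdr1,2,3, against 22.1, 20.9 and 22.2 CPM in the wild type (log2 fold change 0.94 ± 0.08 (SE), edgeR adjusted p = 3.06e-09), without overlap. IAA28 had 102 ± 7.70 CPM in bdr1,2,3 and 70.8 ± 11.2 CPM in the wild type, IAA7 758 ± 13.0 CPM in bdr1,2,3 and 557 ± 15.7 CPM in the wild type, and IAA2 398 ± 22.3 CPM in bdr1,2,3 and 309.5 ± 13.3 CPM in the wild type (SD, n = 3 each). GH3 enzymes, which join auxin or jasmonate to amino acids, went both ways. Of 13 tested, 4 (30.8%) were higher and 2 (15.4%) lower, against 8.67% and 10.6% of all genes, and 2 were higher without wild-type replicate 3. DFL1 had 311, 327 and 312 CPM in bdr1,2,3, against 609, 615 and 628 CPM in the wild type (log2 fold change -0.96 ± 0.07 (SE), edgeR adjusted p = 1.05e-10), and WES1 had 96.4 ± 8.89 CPM in bdr1,2,3 and 151 ± 30.4 CPM in the wild type, while GH3.3 had 5.65 ± 0.494 CPM in bdr1,2,3 and 3.44 ± 0.542 CPM in the wild type (log2 fold change 0.72 ± 0.14 (SE), edgeR adjusted p = 0.000688).

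Wall-loosening enzymes were divided. Of 39 tested expansins and xyloglucan endotransglucosylases (XTH), 13 were higher and 7 lower, with a median of 0.03. EXPB1, a beta-expansin, had 10.09, 11.6 and 13.9 CPM in bdr1,2,3, against 5.54, 4.58 and 5.00 CPM in the wild type (log2 fold change 1.23 ± 0.17 (SE), edgeR adjusted p = 1.24e-05). EXPA11, an alpha-expansin, had 16.9, 14.7 and 14.6 CPM in bdr1,2,3, against 7.94, 8.82 and 7.94 CPM in the wild type (log2 fold change 0.90 ± 0.12 (SE), edgeR adjusted p = 3.61e-06), and XTH8 had 22.4 ± 1.57 CPM in bdr1,2,3 and 12.0 ± 1.3 CPM in the wild type. XTH9 was among the lower members, with 30.7, 27.2 and 25.1 CPM in bdr1,2,3, against 46.3, 52.9 and 51.2 CPM in the wild type (log2 fold change -0.86 ± 0.12 (SE), edgeR adjusted p = 1.6e-05). The number of higher members was 8 without wild-type replicate 2 and 9 to 11 without any other library. Alpha and beta tubulins, a family added after the values had been seen, gave 8 higher and no lower genes of 15 (median 0.22), of which TUB1 had 19.6, 21.6 and 19.3 CPM in bdr1,2,3, against 11.1, 9.24 and 9.06 CPM in the wild type (log2 fold change 1.05 ± 0.13 (SE), edgeR adjusted p = 2.14e-06) but overlaps genes on the opposite strand. The tubulin count was 5 without wild-type replicate 2 or mutant replicate 2. GASA1, a gibberellin-regulated cell wall peptide, was among the most abundant higher genes, with 1979.9 ± 133 CPM in bdr1,2,3 and 1312 ± 39.6 CPM in the wild type (log2 fold change 0.59 ± 0.13 (SE), edgeR adjusted p = 0.00204), and CINV1, a cytosolic invertase, had 502 ± 47.5 CPM in bdr1,2,3 and 329 ± 18.4 CPM in the wild type (log2 fold change 0.61 ± 0.09 (SE), edgeR adjusted p = 2.25e-05).

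Peroxidases of class III, secreted enzymes of the cell wall, had 15 higher genes and 1 lower gene of 48 tested (median 0.28). AT4G36430 had 21.7, 15.6 and 20.7 CPM in bdr1,2,3, against 3.89, 3.16 and 2.76 CPM in the wild type (log2 fold change 2.55 ± 0.16 (SE), edgeR adjusted p = 2.27e-11). AT2G18150 had 4.68, 5.12 and 5.26 CPM in bdr1,2,3, against 0.579, 0.666 and 0.431 CPM in the wild type (log2 fold change 3.14 ± 0.30 (SE), edgeR adjusted p = 3.47e-08). AT3G21770 had 59.2, 62.8 and 63.6 CPM in bdr1,2,3, against 45.7, 37.2 and 44.1 CPM in the wild type (log2 fold change 0.55 ± 0.08 (SE), edgeR adjusted p = 1.47e-05). In these 3 every mutant library lay above every wild-type library, although the summed level of the family overlapped, with 4045, 4629 and 4566 CPM in bdr1,2,3, against 4289, 3827 and 3801 CPM in the wild type. The sum was highest in wild-type replicate 1 among the wild-type libraries. Without wild-type replicates 1 and 3 together 10 peroxidases were higher, and without a single library 12 to 15.

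Among root markers, too, more genes were higher than lower. Of 13 root markers 6 were higher and none lower (median 0.29), and their summed level was 665, 745 and 715 CPM in bdr1,2,3, against 569.6, 574 and 599 CPM in the wild type. CASP1, which builds the Casparian strip of the root endodermis, had 86.0, 96.4 and 88.6 CPM in bdr1,2,3, against 72.8, 69.1 and 74.4 CPM in the wild type (log2 fold change 0.33 ± 0.07 (SE), edgeR adjusted p = 0.00158), and CASP5 had 167, 180.4 and 182 CPM in bdr1,2,3, against 132, 122 and 141 CPM in the wild type (log2 fold change 0.43 ± 0.08 (SE), edgeR adjusted p = 0.000303). The number of higher markers was 3 without wild-type replicate 2 or mutant replicate 2, 4 to 6 without another single library, and 2 without wild-type replicates 1 and 3 together. Of 8 guard cell and stomatal lineage markers 2 were lower and none higher (median -0.62), TMM with 5.22 ± 0.386 CPM in bdr1,2,3 and 9.10 ± 1.07 CPM in the wild type and KAT1 with 4.50 ± 0.928 CPM in bdr1,2,3 and 7.18 ± 0.805 CPM in the wild type, and their summed level was 21.7 to 27.8 CPM in bdr1,2,3 and 29.6 to 36.8 CPM in the wild type. None of 8 vascular markers and neither of the tested meristem markers was called at an adjusted p under 0.05 by edgeR, and the meristem markers WUS and CLV3 were too low to be tested. The part of tissue proportions in the results on photosynthesis, growth and wall genes was not tested.

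**Figure D4:**
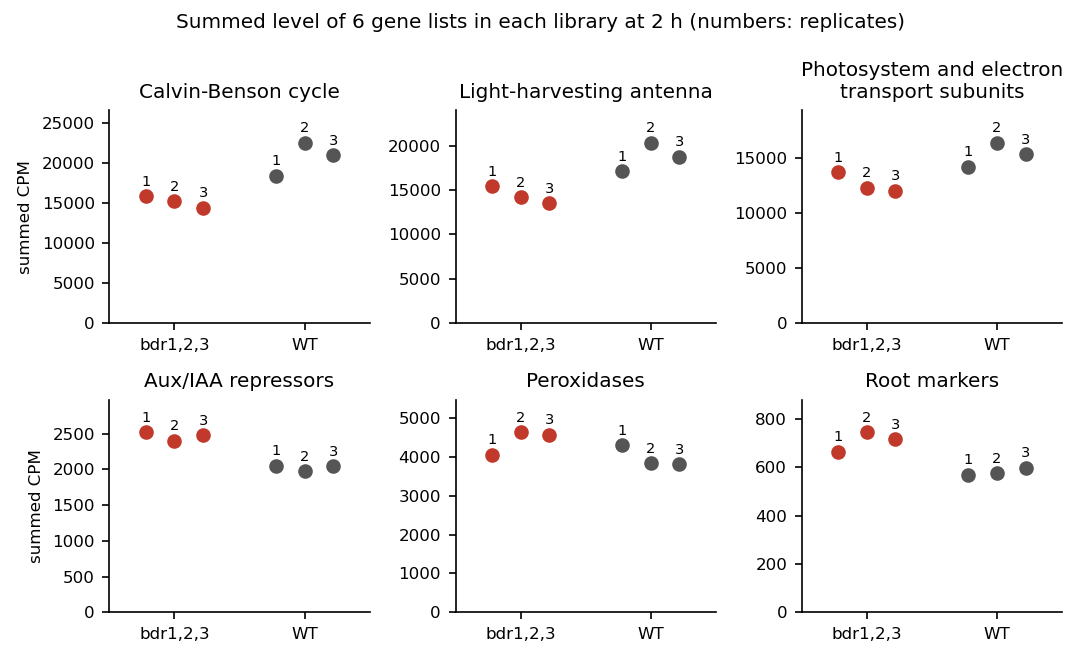
Summed level (CPM) of the members of 6 gene lists in each library after 2 h of light, bdr1,2,3 on the left and the wild type on the right, with replicate numbers above the points. The sums do not overlap between the genotypes for the Calvin-Benson cycle (14379 to 15833 CPM against 18358 to 22492 CPM) or Aux/IAA genes (2400 to 2521 CPM against 1977 to 2049 CPM), whereas those of peroxidases do.

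Hormone and defence genes were also among those called. Of all tested genes 8.67% were higher and 10.6% lower. Of 19 jasmonate genes 6 (31.6%) were higher and 1 (5.26%) lower. JAZ10, a jasmonate-induced repressor of the pathway, had 4.52, 4.43 and 6.80 CPM in bdr1,2,3, against 1.90, 2.25 and 2.5 CPM in the wild type (log2 fold change 1.22 ± 0.21 (SE), edgeR adjusted p = 0.000132), and AOC3, an enzyme of jasmonate synthesis, had 7.26, 7.11 and 6.98 CPM in bdr1,2,3, against 3.47, 3.41 and 4.06 CPM in the wild type (log2 fold change 0.96 ± 0.16 (SE), edgeR adjusted p = 0.000145). JAZ1 had 43.1 ± 1.40 CPM in bdr1,2,3 and 23.1 ± 3.69 CPM in the wild type. Of 24 genes of abscisic acid and dehydration 6 were higher and 2 lower. KIN1 had 20.2, 19.7 and 19.8 CPM in bdr1,2,3, against 7.2, 7.82 and 7.51 CPM in the wild type (log2 fold change 1.40 ± 0.16 (SE), edgeR adjusted p = 7.81e-07), and LTI65 had 101, 100.1 and 95.4 CPM in bdr1,2,3, against 50.5, 45.9 and 41.6 CPM in the wild type (log2 fold change 1.1 ± 0.17 (SE), edgeR adjusted p = 0.000468), both being responsive to cold and drought. HAI1, a phosphatase that restrains abscisic acid signalling, was lower with 67.9, 66.3 and 67.8 CPM in bdr1,2,3, against 121, 104 and 123 CPM in the wild type (log2 fold change -0.78 ± 0.09 (SE), edgeR adjusted p = 9.31e-07). CYP707A2, an enzyme of abscisic acid breakdown from the cytochrome P450 family, had 14.6, 13.9 and 15.9 CPM in bdr1,2,3, against 4.88, 6.16 and 7.16 CPM in the wild type (log2 fold change 1.28 ± 0.15 (SE), edgeR adjusted p = 8.45e-07). Of the list, 3 genes were higher without wild-type replicate 2, wild-type replicate 3 or mutant replicate 1. Of 24 genes of salicylic acid and immunity 4 (16.7%) were higher and 2 (8.33%) lower, the latter under the share of all genes. The higher ones included WRKY70, a regulator of salicylic acid responses (log2 fold change 0.74 ± 0.17 (SE), edgeR adjusted p = 0.00312), and their number was 2 without wild-type replicate 2. Of 50 WRKY factors 7 (14.0%) were higher and none lower, and the count was 3 without wild-type replicate 2 or 3, 4 without mutant replicate 2 or 3, and 5 without either remaining library. NLR immune receptors went both ways, with 18 (16.1%) higher and 13 (11.6%) lower of 112, the latter near the share of all genes. AT5G11250 had 21.8, 20.8 and 20.1 CPM in bdr1,2,3, against 9.18, 9.40 and 10.2 CPM in the wild type (log2 fold change 1.12 ± 0.11 (SE), edgeR adjusted p = 8.98e-08), and WRR4, a receptor against white rust, had 4.76, 3.58 and 3.63 CPM in bdr1,2,3, against 8.02, 12.6 and 10.0 CPM in the wild type (log2 fold change -1.36 ± 0.17 (SE), edgeR adjusted p = 2.33e-06). AT5G11250 starts 63 bp and WRR4 223 bp after a same-strand neighbour. Without wild-type replicate 1 there were 11 higher NLR genes.

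Regulators of the light response itself went both ways. Of 47 tested genes of photoreceptors and light signalling 9 (19.1%) were higher and 7 (14.9%) lower, with a median of 0.04. Among all tested genes the shares were 8.67% and 10.6%. PHYE, a phytochrome gene that overlaps AT4G18140 on the same strand, had 24.5, 25.7 and 28.3 CPM in bdr1,2,3, against 47.3, 60.4 and 59.5 CPM in the wild type (log2 fold change -1.09 ± 0.11 (SE), edgeR adjusted p = 2.82e-07). PIF3, a phytochrome-interacting bHLH factor that is degraded in light, had 33.0, 35.0 and 34.2 CPM in bdr1,2,3, against 24.9, 24.1 and 23.4 CPM in the wild type (log2 fold change 0.50 ± 0.08 (SE), edgeR adjusted p = 4.41e-05), and RUP1, a repressor of the UV-B receptor, had 128 ± 0.784 CPM in bdr1,2,3 and 92.5 ± 1.39 CPM in the wild type. HY5, the bZIP factor at the centre of the light response, differed by 0.07 (adjusted p = 0.631). The higher members numbered 4 without wild-type replicate 2 and 5 without wild-type replicate 3 or mutant replicate 3. Of 22 clock genes 4 (18.2%) were lower and 1 (4.55%) higher, with PRR5 at 25.5 ± 1.02 CPM in bdr1,2,3 and 38.0 ± 1.41 CPM in the wild type (log2 fold change -0.58 ± 0.10 (SE), edgeR adjusted p = 0.000234). Of 24 phenylpropanoid and flavonoid genes 5 (20.8%) were higher and 4 (16.7%) lower, the higher ones including PAL1 with 311 ± 23.8 CPM in bdr1,2,3 and 229 ± 16.6 CPM in the wild type and C4H with 611 ± 28.7 CPM in bdr1,2,3 and 479 ± 31.9 CPM in the wild type, enzymes at the entry of the pathway. Without wild-type replicate 1, wild-type replicate 3 or mutant replicate 2, 3 of these genes were higher, and the lower ones numbered 1 without wild-type replicate 3 and 2 without wild-type replicate 2 or mutant replicate 2. None of 12 glucosinolate genes passed the edgeR test at 0.05.

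The largest rises were seen in genes of diverse function. Their wild-type levels were low, which the choice by fold change favours, as only the higher group had to reach 2 CPM. AT5G60610, an F-box protein, had 25.1, 23.2 and 25.1 CPM in bdr1,2,3, against 2.65, 2.41 and 3.11 CPM in the wild type (log2 fold change 3.16 ± 0.14 (SE), edgeR adjusted p = 2.89e-14). AT3G01345, of no annotated function, had 7.51, 9.15 and 9.07 CPM in bdr1,2,3, against 0.0827, 0.333 and 0.431 CPM in the wild type (log2 fold change 4.89 ± 0.32 (SE), edgeR adjusted p = 3.29e-11). AT3G09405, a pectin acetylesterase, had 12.6, 14.2 and 13.1 CPM in bdr1,2,3, against 1.65, 1.66 and 1.90 CPM in the wild type (log2 fold change 2.93 ± 0.17 (SE), edgeR adjusted p = 6.76e-12), but overlaps AT3G09410 on the same strand, an uncertain pair. The mutant and wild-type libraries did not overlap for these genes. Outside the 12 largest rises, MDHAR, a monodehydroascorbate reductase of the antioxidant list, had 5.89, 6.08 and 7.25 CPM in bdr1,2,3, against 1.49, 0.915 and 0.604 CPM in the wild type (log2 fold change 2.65 ± 0.28 (SE), edgeR adjusted p = 1.71e-07), also without overlap. Of the 12 largest rises 3 had a same-strand neighbour less than 300 bp upstream. For AT5G60610 that neighbour, HDS, a plastid enzyme of isoprenoid synthesis, was lower (log2 fold change -0.56 ± 0.07 (SE), edgeR adjusted p = 5.29e-06), and for AT1G13310 the neighbour PP2AA3 was lower too (log2 fold change -0.33), whereas AT4G32620 upstream of AT4G32630 had 0.01 and was not called. The gap before AT5G60610 is shown as the counterpart of the gaps before genes that fell, with TATAAA in capitals.
AT5G60610 (chr5:24363486-24363590, plus strand, after HDS): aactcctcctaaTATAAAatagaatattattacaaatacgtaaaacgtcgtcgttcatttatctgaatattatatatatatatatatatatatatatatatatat

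The dark seedlings, which share no library with the 2 h comparison, had smaller median differences in photosynthesis genes. The median log2 fold change of the Calvin-Benson genes was -0.05 in the dark, -0.39 after 2 h and -0.21 after 4 h of light, and that of the antenna genes -0.06, -0.40 and -0.36. Over the first 2 h of light, 19 of the 23 Calvin-Benson genes rose in bdr1,2,3 and 21 in the wild type, with a median light response of 2.11 in bdr1,2,3 and 2.25 in the wild type. All 23 genes of the antenna list, ELIP1 and ELIP2 included, rose in each genotype, with a median of 4.07 in bdr1,2,3 and 4.37 in the wild type. In the test of the difference itself, that is, the genotype effect at 2 h minus that in the dark, 5 Calvin-Benson genes and 4 antenna genes were more negative at 2 h and none was more positive, where 0.743% of all tested genes were more negative and 1.1% more positive. CP12-2 had a genotype effect of -0.30 in the dark and -1.72 after 2 h (difference -1.42, edgeR adjusted p = 0.000617). For PGK1 the effects were -0.38 and -1.13 (adjusted p of the difference = 0.0119), and for LHCB5 0.05 and -0.71 (adjusted p = 0.00804). LHB1B1 had the opposite sign in the dark (1.73, against -0.86 at 2 h, adjusted p of the difference = 0.00089). Its dark levels were very low, with 1.79, 2.21 and 1.19 CPM in bdr1,2,3, against 0.527, 0.270 and 0.751 CPM in the wild type. The dark sign of LHB1B1 therefore rests on few reads. GAPB was already lower in the dark (-2.94) and remained lower at 2 h (-3.05) and 4 h (-1.74), and its difference between dark and 2 h was not called (adjusted p = 0.847).

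The SAUR genes also had a smaller median difference in the dark than after 2 h. Their median was nearer to 0 again after 4 h, while that of the antenna genes was not. The families were not tested against each other. In the dark SAUR19 averaged 31.7 CPM in bdr1,2,3 and 28.6 CPM in the wild type, and after 4 h 3.47 CPM in bdr1,2,3 and 2.39 CPM in the wild type. The median of the genotype differences of the family was 0.13 in the dark (4 higher and 2 lower), 0.53 after 2 h (24 and 5) and 0.14 after 4 h (5 and 4), and 8 of the 61 were more positive at 2 h than in the dark and none more negative. SAUR19 differed by 0.15 in the dark and 1.37 after 2 h (adjusted p of the difference = 0.00818), and IAA19 by 0.15 and 0.94 (adjusted p = 6.46e-05). Over the same 2 h, the median light response of the SAUR genes was -1.55 in bdr1,2,3 and -2.02 in the wild type. Peroxidases, by contrast, were higher already in the dark (median 0.49, 15 higher) and stayed so at 4 h (0.46, 14 higher).

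**Figure D5:**
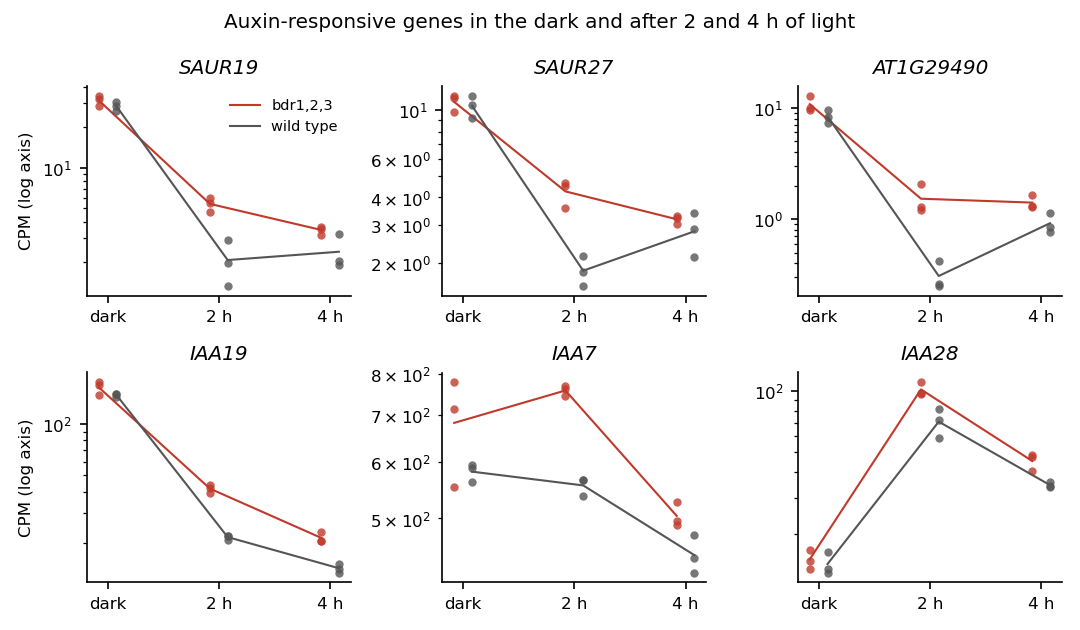
Level (CPM, log axis) of SAUR19, SAUR27, AT1G29490, IAA19, IAA7 and IAA28 without light, at 2 h and at 4 h, with a point for each library and lines through the group means, bdr1,2,3 in red and the wild type in grey. After 2 h every bdr1,2,3 library lies above every wild-type library in all 6 panels, as for SAUR19 with 4.72 to 5.97 CPM against 1.32 to 2.91 CPM.

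Across the other conditions, which use separate libraries, the genes called at 2 h were called again in the following numbers, given as a share of the 2 h genes and of the genes called in the other condition. Of the 2065 lower genes, 1051 (50.9%, and 47.7% of the genes lower in the dark) were also lower in the dark and 1074 (52.0% and 63.5%) after 4 h. In the 12-day-old seedlings 573 of 2020 (28.4% and 48.9%) were lower at 12 °C and 800 (39.6% and 39.0%) at 27 °C. Of the 1693 higher genes, 726 (42.9% and 46.3%) were higher in the dark and 838 (49.5% and 54.6%) after 4 h, with 241 of 1587 (15.2% and 27.8%) at 12 °C and 350 (22.1% and 21.6%) at 27 °C. The backgrounds for lower and higher genes were 11.3% and 8.04% in the dark, 8.67% and 7.86% at 4 h, 6.36% and 4.57% for the cold seedlings, and 10.9% and 8.53% for the heated seedlings. The test of a difference between these shares was not made. AT4G11410 averaged 0.167 CPM in bdr1,2,3 and 27.4 CPM in the wild type in the cold, and 0.0557 CPM in bdr1,2,3 and 18.0 CPM in the wild type in the heat. In these older seedlings edgeR called 9 of 23 antenna genes higher and none lower at 12 °C, and 7 higher and none lower at 27 °C. Of the Calvin-Benson genes 5 were higher and 3 lower at 12 °C and 4 were higher and 4 lower at 27 °C. GAPB differed by -0.36 and -0.41 there, SAUR19 by -0.84 and -0.20, and IAA19 by -0.32 and -0.81.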

How the data were processed

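The authors deposited a table of raw counts per gene for each experiment, which were analysed without change. Their processing notes name TAIR10, STAR 2.5.2b, SAMtools 1.3.1, featureCounts, R 3.3.2 and DESeq2 1.14.1. Libraries were made with a stranded kit, and the strand setting of the counting is not given in the sources used here. Groups came from the sample titles. The labels describe 3 plates per condition, and p-values measure only the spread between these libraries.

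Genes were tested with edgeR 4.0.16 in R 4.3.3 (TMM normalization, filterByExpr, robust quasi-likelihood fit, a coefficient for each group, all 18 photomorphogenesis libraries), with Benjamini-Hochberg adjustment over the 19521 genes tested. The 12 libraries of the cold and heat experiment were fitted apart (19473 genes). Tests were two-sided. Library totals set the precision, and floors (at most 3 counts in every library of a group) cover counting error only. On simulated counts for this comparison (19521 genes), 80.6% of 1.5-fold, 98.5% of 2-fold and 98.5% of 4-fold changes were recovered, and 11 of 196 calls were false. Only 67, 67 and 66 genes were changed, all above 2 CPM, where the real comparison called 3758. Means were otherwise equal in all libraries, and the noise was independent, without the spread seen between the wild-type libraries. The recovery and false-call rates therefore hold for these settings and not for the real calls.

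Gene positions, descriptions and sequences came from RefSeq's TAIR10.1 annotation. The gene lists (20 written by locus, 24 families by product name, and 4 families added later) and the rules were chosen with earlier results of these data known, so no list is independent support. Lists are described by their counts beside the shares of all genes. Named genes were the 3 disrupted genes, the 12 largest rises and falls (called, groups not overlapping, at least 2 CPM in the higher group), the 8 most abundant called genes of each direction with at least 1.5-fold change, the 4 called members of each list with the smallest p (all where 5 or fewer), and upstream neighbours; the text gives a selection of these and says where another gene was chosen after its values were seen. Alternatives were RLE normalization, DESeq2 1.42.0, other filters, the 6 libraries alone, a replicate block, a fold minimum and each library left out.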

Additional observations from a re-analysis of the deposited data

Results flagged for a closer look

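For 26 of the named genes the genotype effect at 2 h differed from that in the dark (interaction term of the edgeR fit, adjusted p under 0.05), 12 being more negative and 14 more positive at 2 h. The interaction is the log2 effect at 2 h minus that in the dark.

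Among the more negative, WRR4 had -3.25, LHB1B1 -2.59, AT1G18060 -1.91, CP12-2 -1.42 and PHYE -1.15. WRR4 was lower at 2 h (-1.36) and higher in the dark (1.89). Its dark levels were very low, with 1.40, 1.68 and 0.949 CPM in bdr1,2,3, against 0.263, 0.359 and 0.417 CPM in the wild type. Dark levels of LHB1B1 were also very low, so both interactions rest on few dark reads. Smaller were LHCB5 with -0.76, PGK1 with -0.75, BDR2 (AT5G11430) with -0.61, PFL with -0.55, PCL1 with -0.40 and FSD1 with -0.35. AT3G09405 had -1.30, being higher in both conditions (2.93 at 2 h and 4.23 in the dark).

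Among the more positive were the auxin-responsive genes AT1G29490 (1.88), SAUR19 (1.21), SAUR27 (1.13), GH3.3 (0.80) and IAA19 (0.79), and the stress-responsive genes LTI65 (1.22), WRKY70 (1.01) and RD26 (0.48). HAI1 (1.41) and CAT1 (0.57) were lower in both conditions and less so at 2 h. AT5G11250 had 1.05, XTH8 0.58, and the GDSL-type lipases AT1G75900 and AT2G04570 had 0.75 and 0.59.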

How the results depend on the processing

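Against 3758 called genes, RLE normalization called 3702 (1905 higher and 1797 lower, a split that TMM gave as 1693 and 2065), DESeq2 3226 (1677 higher and 1549 lower), no filter 3570, a minimum of 1 CPM 3703, and the 6 libraries alone 4069. A minimum fold change of 1.5 left 1406. Leaving out single libraries gave 2670 to 3481 genes, and leaving out wild-type replicates 1 and 3 together, chosen after seeing the data, gave 1944. The lower members of the Calvin-Benson cycle ranged from 10 to 19 and of the antenna from 8 to 12 without single libraries. Replicate numbers did not pair the libraries (correlations of 0.036, 0.007 and 0.087), and a replicate block on the 6 libraries called 3949 genes, of which 3341 were among the 3758. No named gene that was called changed direction under any alternative, but 21 of them lost their call without some single library. Uncalled upstream neighbours moved by more than their standard error in some fits (2 without mutant replicate 1, 1 without wild-type replicate 3 and 5 without wild-type replicates 1 and 3), and AT1G18950 and AT3G01340 among these changed sign near 0. Genes of low count, such as most SAUR genes, have the widest errors.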

Other observations

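Gene groups outside the main pattern also held called members. Of 40 histone genes, in a family added after the values had been seen, 11 were higher and 1 lower (median 0.22). HTA6, a histone H2A, had 22.4, 19.8 and 18.9 CPM in bdr1,2,3, against 14.3, 12.5 and 13.4 CPM in the wild type (log2 fold change 0.61 ± 0.13 (SE), edgeR adjusted p = 0.00129), and AT5G65360, a histone H3, had 43.3 ± 2.14 CPM in bdr1,2,3 and 33.4 ± 3.71 CPM in the wild type (SD, n = 3 each). Histone genes are near-identical copies, so that their reads may be divided among them, and the number of higher members was 6 without wild-type replicate 2, 8 to 10 without another single library and 2 without wild-type replicates 1 and 3 together. Of 18 genes of the 20S proteasome, also added afterwards, 6 were higher and none lower (median 0.15), and 3 without wild-type replicate 2, wild-type replicate 3 or mutant replicate 1. PBG1, a beta subunit, had 59.6, 58.4 and 62.9 CPM in bdr1,2,3, against 50.2, 44.4 and 49.6 CPM in the wild type (log2 fold change 0.33 ± 0.07 (SE), edgeR adjusted p = 0.000991).

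Of 19 genes of reserve mobilisation 3 (15.8%) were higher, against 8.67% of all genes, and none lower. Without mutant replicate 2 the count was 1. ICL, the isocitrate lyase of the glyoxylate cycle that turns seed oil into sugar, had 1105, 1086 and 996 CPM in bdr1,2,3, against 618, 636 and 679 CPM in the wild type (log2 fold change 0.72 ± 0.09 (SE), edgeR adjusted p = 1.59e-06), and was also higher in the cold by 2.66 and in the heat by 3.92. Of 204 cytosolic ribosomal proteins 14 (6.86%) were lower and 5 (2.45%) higher, against 10.6% and 8.67% of all genes (1 to 4 higher without a single library, the fewest without wild-type replicate 3, mutant replicate 1 or mutant replicate 2). PFL, a ribosomal protein S18 gene 73 bp after a same-strand neighbour, had 35.1, 33.2 and 34.5 CPM in bdr1,2,3, against 56.1, 52.1 and 52.5 CPM in the wild type (log2 fold change -0.64 ± 0.08 (SE), edgeR adjusted p = 1.8e-06). Of 41 glutathione S-transferases 7 (17.1%) were higher and 2 (4.88%) lower, and GSTF2 had 53.3, 53.4 and 53.9 CPM in bdr1,2,3, against 32.3, 26.4 and 29.6 CPM in the wild type (log2 fold change 0.86 ± 0.09 (SE), edgeR adjusted p = 7.18e-08). Of 25 genes of RNA polymerase II elongation and transcript termination 2 (8.0%) were lower, a share under the 10.6% of all genes. The count was 1 without wild-type replicate 2, wild-type replicate 3 or mutant replicate 2. ELF7, a subunit of the PAF1 complex (log2 fold change -0.48 ± 0.07 (SE), edgeR adjusted p = 4.39e-05), overlaps AT1G79740, among the largest falls, on the same strand.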
